A study of Homo sapiens with 6 samples.

Results

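The ZNF genes of chromosome 19 were followed in 3 lines made from CAL27, an established cell line from an oral carcinoma described in the labels as adenosquamous. Members were chosen by position, name and level. They were the protein-coding genes that GENCODE release 29 places on chromosome 19, whose symbol is ZNF followed by digits, and whose mean FPKM, the read count per unit of gene length and of library size, was at least 1 over the 6 libraries. This gave 86 members of the 30178 genes in the table, or of the 11481 genes that reached the same mean FPKM. The annotation holds 249 such genes on chromosome 19, of which 159 were in the table and 73 of those lay under the threshold. The other 90 were not analysed here. Since the mean FPKM chose the members, their level is given as a description.

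RNA was sequenced from 3 stable CAL27 lines, with 2 libraries (A and B) in each group. The Q311E line carried GFP-fused MB21D2 in which the glutamine at the named position is a glutamate, the WT line carried GFP-fused wild-type MB21D2, and the vector line carried the empty vector. All 3 lines grew under G418, the drug that selects for the introduced plasmid, in DMEM with serum. The labels name neither the promoter of the constructs nor whether a line is 1 clone. Nothing in them says that libraries A and B came from different cultures. Each p-value rests on the spread between A and B, pooled over the 3 lines in 1 fit, and that spread may be technical.

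KRAB zinc finger genes are the largest family of human transcription factors, and most of them lie in tandem clusters on chromosome 19 that grew by duplication. Their C2H2 fingers read DNA, often within transposable elements, and their KRAB domain binds TRIM28 (KAP1). TRIM28 brings the methyltransferase SETDB1 and HP1 proteins, which lay down and bind H3K9me3 and silence the bound site, ZNF clusters included. A smaller group of ZNF genes encodes fingers without KRAB and can activate or bind RNA instead.

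MB21D2, a Mab-21 domain protein of the family of the DNA sensor cGAS, had 32.8 and 21.2 FPKM in the Q311E libraries, 104 and 106 FPKM in the WT libraries and 8.32 and 7.15 FPKM in the vector libraries. Both lines stood above the vector line, and the Q311E line stood below the WT line, so the form of MB21D2 and its RNA level cannot be told apart in any comparison of the 2 lines. Library totals lay between 20645410 and 24147306 reads, and every member rested on 40 to 3221 recovered reads in each library (median 268.5). The SD of the log2 difference between libraries A and B over the 86 members was 0.265 in Q311E, 0.099 in WT and 0.129 in the vector line. A gene is called where its limma p, adjusted over all genes tested, lay under 0.05. The 8 squamous epithelial markers listed were all tested. In Q311E against vector 1 was called higher and 2 lower (8.67% and 9.28% of all genes). In WT against vector 0 were called higher and 4 lower (3.54% and 8.76% of all genes). In Q311E against WT 2 were called higher and 1 lower (17.5% and 10.1% of all genes). KRT5 (405 to 579 FPKM) and EPCAM (116 to 167 FPKM) were present in every library and called in no comparison. KRT14 was at 0.771 and 0.902 FPKM in Q311E and 2.08 and 2.35 FPKM in WT, against 762 and 697 FPKM in the vector line. KRT6A was also lower in both MB21D2 lines (log2 fold change against vector, on FPKM + 1, of -2.68 in Q311E and -3.48 in WT), KRT17 was higher in Q311E (0.64) and lower in WT (-1.19), and TP63 was lower in WT (-0.99, limma adjusted p = 0.0448). Keratin RNA levels thus differed between the lines. Of the leukocyte markers PTPRC, CD3E and CD68 were at or near 0, while CD14 had 4.93 and 18.8 FPKM in Q311E, 2.40 and 2.56 FPKM in WT, and 1.78 and 3.17 FPKM in the vector line. The 6 fibroblast markers summed to between 3.07 and 3.84 FPKM in Q311E, 2.495 and 2.77 FPKM in WT, and 2.96 and 3.59 FPKM in the vector line, with DCN and COL3A1 at or near 0 and COL1A2 called higher in Q311E against both other lines. Of the endothelial markers CDH5 had 22.6 and 35.2 FPKM in Q311E, 15.9 and 15.4 FPKM in WT, and 19.9 and 21.3 FPKM in the vector line and was called higher in Q311E against WT, while VWF and PECAM1 were at 0.317 FPKM or less. The part of these markers in the results on ZNF genes was not tested. In bulk libraries fewer cells of a type and less RNA per cell cannot be told apart.

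The promoters of 4 called members are shown because they carry the largest rise in Q311E (ZNF616), a rise in both lines (ZNF274), the largest rise in WT (ZNF551) and the fall of the second most abundant member (ZNF787). Each run holds 300 bases of RefSeq sequence (GRCh38.p14) in the direction of the gene, 250 before the start and 50 after it. Capitals mark CCGGAAG, the core bound by ETS factors, and ACTACA, a stretch of the ZNF143 element, each searched on both strands (CTTCCGG and TGTAGT on the other strand). ZNF616 lies at chr19:52139889-52140188 on the minus strand, ZNF274 at chr19:58182811-58183110 on the plus strand, ZNF551 at chr19:57681727-57682026 on the plus strand and ZNF787 at chr19:56121246-56121545 on the minus strand.
ZNF616: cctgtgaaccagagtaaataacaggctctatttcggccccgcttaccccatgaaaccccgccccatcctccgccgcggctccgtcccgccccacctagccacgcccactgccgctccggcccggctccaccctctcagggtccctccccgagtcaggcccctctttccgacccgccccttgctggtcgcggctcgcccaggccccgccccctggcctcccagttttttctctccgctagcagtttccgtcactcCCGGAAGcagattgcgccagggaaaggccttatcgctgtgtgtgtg
ZNF274: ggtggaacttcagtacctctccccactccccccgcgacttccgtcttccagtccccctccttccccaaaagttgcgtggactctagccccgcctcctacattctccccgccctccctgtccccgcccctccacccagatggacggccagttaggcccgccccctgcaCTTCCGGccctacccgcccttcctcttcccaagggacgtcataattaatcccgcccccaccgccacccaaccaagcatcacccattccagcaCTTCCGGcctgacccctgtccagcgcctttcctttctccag
ZNF551: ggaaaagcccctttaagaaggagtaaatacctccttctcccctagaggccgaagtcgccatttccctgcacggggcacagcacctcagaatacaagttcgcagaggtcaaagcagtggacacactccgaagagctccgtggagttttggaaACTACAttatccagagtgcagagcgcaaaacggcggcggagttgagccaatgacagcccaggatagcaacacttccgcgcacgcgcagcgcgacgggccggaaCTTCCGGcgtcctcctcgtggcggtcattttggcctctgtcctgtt
ZNF787: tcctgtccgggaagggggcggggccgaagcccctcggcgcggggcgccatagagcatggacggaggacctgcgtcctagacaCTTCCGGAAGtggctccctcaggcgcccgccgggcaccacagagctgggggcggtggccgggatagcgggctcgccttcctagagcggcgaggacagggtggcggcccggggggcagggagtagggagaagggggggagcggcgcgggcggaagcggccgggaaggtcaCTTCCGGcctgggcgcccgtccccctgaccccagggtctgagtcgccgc
The ETS core occurred once in ZNF616, at 2 places in ZNF274, and once in ZNF551 beside 1 ACTACA. ZNF787 held 3 matches, of which 2 overlap on opposite strands. RefSeq held a promoter for 79 of the 86 members. Of these, 45.6% held the ETS core, against 40.2% of 132 promoters of ZNF genes on other chromosomes, 20.2% of 480 promoters of other chromosome 19 genes and 14.2% of 15843 promoters of protein-coding genes. ACTACA stood in 36.7% of the members' promoters, against 12.1%, 7.08% and 8.51% in the same 3 sets. The core of the NRF1 site, GCATGCGC, stood in 2.53% of the members' promoters and 4.26% of all protein-coding promoters. Matches are a description of these windows. Members with the ETS core had a median log2 fold change of 0.22 in Q311E against vector (n = 36), and those without it 0.11 (n = 43). In WT against vector the medians were 0.086 and 0.068. The KRAB pattern, described below, was in 28 of the 36 and 24 of the 43, and site and domain were not tested apart. For ACTACA the medians in Q311E against vector were 0.14 with it (n = 29) and 0.20 without it (n = 50).

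Most members were weakly expressed. Mean FPKM ran from 1.02 to 28.6 with a median of 2.31, against a median of 6.89 over all genes tested and 3.16 over 160 ZNF genes of other chromosomes. Of the 86, 36 lay under a mean of 2, 36 between 2 and 5, and 14 at 5 or above. The 5 most abundant were ZNF146, which encodes a protein made almost wholly of fingers, ZNF787, ZNF317, ZNF581 and ZNF865. ZNF317 had 12.1 and 9.92 FPKM in Q311E, 11.2 and 11.1 in WT, and 9.26 and 8.79 in the vector line. ZNF581, which overlaps its neighbour ZNF580 and may share reads with it, had 9.57 and 12.8 FPKM in Q311E, 9.04 and 9.64 in WT, and 9.27 and 9.66 in the vector line. ZNF865 had 7.30 and 9.46 FPKM in Q311E, 8.46 and 7.96 in WT, and 8.71 and 8.19 in the vector line. None of these last 3 was called in any comparison. Just inside the threshold stood ZNF30 (mean 1.02 FPKM), ZNF235 (1.08) and ZNF460 (1.09), and just outside it ZNF8 (0.999), ZNF28 (0.946) and ZNF114 (0.913). Of the members, 9 had a group mean under 1 and passed through their other groups, among them ZNF616, ZNF761, ZNF112 and ZNF708.

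A KRAB pattern was found in the translated coding sequence of 57 members, a SCAN pattern without KRAB in 2, and neither in 27. The pattern is a motif search in GENCODE 29 coding sequences and can miss a diverged domain. KRAB members are those in which it was found. Members said to be without KRAB may include genes whose domain it missed. Members encoded 1 to 26 fingers, with a median of 13 in KRAB members and 8 in the others. KRAB members were the weaker expressed, with a median mean FPKM of 1.94 against 3.73 in the others. The members fell into 13 of 16 position clusters, a new cluster starting wherever successive annotated ZNF genes began over 1 Mb apart. Cluster 16, at the end of the long arm (55.5 to 58.5 Mb), held 37 members of 59 annotated genes. Cluster 12 (43.5 to 45.1 Mb) held 12 of 24, and cluster 2 (7.07 to 9.79 Mb) held 9 of 16. Clusters 3 (11.5 to 12.6 Mb) and 15 (51.6 to 53.6 Mb) held 6 each, of 26 and 40 annotated genes. Cluster 5 (19.7 to 24.1 Mb), the pericentromeric one, held 5 of 37, and cluster 9 (36.2 to 37.8 Mb) only ZNF146 of 26.

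The comparison of Q311E with the vector line asks what differs in cells that carry the substituted form. The fit called a member higher in 3 of the 13 clusters that hold members, and the median difference lay above 0 in 11 of them, 7 of the 13 having 1 or 2 members. Fold changes are differences of log2(FPKM + 1), so that those of weakly expressed genes are understated. Their median was 0.20 over the members, against 0.00049 over all genes tested. It was 0.08 over ZNF genes of other chromosomes and -0.0068 over 576 other protein-coding genes of chromosome 19. The value lay above 0 for 66 of 86 members (76.7%) and for 5746 of all 11481 genes. It stayed above 0 under every scaling tried, between 0.11 with quantile normalization and 0.28 on recovered reads, but was 0.0059 over the 14 members with a mean FPKM of at least 5. The fit called 10 members higher (11.6%) and 2 lower (2.33%), against 8.67% and 9.28% of all genes in the same directions. The share called higher lay near that background. The calls were 7 higher and 0 lower with TPM scaling, and 4 higher and 3 lower with quantile normalization. With 2 libraries a group, groups that do not overlap are common. In Q311E against vector this held for 55 of 86 members and 6897 of 11481 genes. The counts were 62 and 8837 in WT against vector, and 61 and 8048 in Q311E against WT.

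ZNF616, a KRAB gene with 21 fingers in cluster 15 (ENSG00000204611, GRCh38 chromosome 19, 52113091 to 52139922), had 1.99 and 2.12 FPKM in Q311E, 1.45 and 1.71 FPKM in WT, and 0.996 and 0.750 FPKM in the vector line. The 3 groups did not overlap, with the vector libraries lowest. It rose in Q311E by 0.71 ± 0.12 (log2 fold change ± SE, limma adjusted p = 0.0198), and the WT difference of 0.46 ± 0.12 was not called (adjusted p = 0.0663). Its neighbour ZNF841, with 20 fingers, had 2.60 and 2.40 FPKM in Q311E against 1.61 and 1.26 FPKM in the vector line, and rose by 0.52 ± 0.12 (adjusted p = 0.0369). ZNF845, the member with the most fingers (26), had 2.45 and 2.51 FPKM in Q311E against 1.73 and 1.40 FPKM in the vector line (0.44 ± 0.11, adjusted p = 0.0451). WT values of these 2 genes lay between 1.61 and 1.81 FPKM, below both Q311E libraries, but neither difference of Q311E from WT was called (0.38, adjusted p = 0.0622, for ZNF841 and 0.33, adjusted p = 0.0695, for ZNF845). ZNF761, the last member of the cluster (53431993 to 53458261), had 1.65 and 1.42 FPKM in Q311E, 1.38 and 1.495 FPKM in WT, and 0.735 and 0.684 FPKM in the vector line. Both MB21D2 lines lay above the vector line and overlapped each other, and ZNF761 rose in Q311E by 0.57 ± 0.11 (adjusted p = 0.0267). ZNF616 and ZNF761 reached the mean FPKM of 1 only through the MB21D2 lines, where they are high, so that their being tested is not independent of their difference from vector.

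In cluster 16, ZNF274 (ENSG00000171606, 58183029 to 58213562) had 3.86 and 3.54 FPKM in Q311E, 3.28 and 3.39 FPKM in WT, and 2.13 and 2.33 FPKM in the vector line. ZNF274 is a KRAB protein known for binding the 3′ ends of other ZNF genes, where it brings TRIM28 and SETDB1. It rose in Q311E by 0.54 ± 0.09 (adjusted p = 0.0197). ZNF776 (57746796 to 57758159) had 3.32 and 3.62 FPKM in Q311E against 2.21 and 1.94 FPKM in the vector line, a rise of 0.54 ± 0.10 (adjusted p = 0.0257). ZNF211 had 2.44 and 3.31 FPKM in Q311E against 1.51 and 1.65 FPKM in the vector line (0.58 ± 0.13, adjusted p = 0.0405). ZNF134, the only member without the KRAB pattern among the rises, had 3.996 and 3.97 FPKM in Q311E against 2.76 and 2.46 FPKM in the vector line (0.47 ± 0.10, adjusted p = 0.0329). In all 4 genes the WT values fell between the other 2 lines, at 2.65 and 2.94 FPKM for ZNF776, 2.10 and 2.08 for ZNF211 and 3.45 and 3.90 for ZNF134. The remaining rises, named after their values were seen, were ZNF416 in cluster 16 (0.38) and ZNF791 in cluster 3 (0.36).

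The falls were both in cluster 16, and the KRAB pattern was found in neither. ZNF787 (56087366 to 56121280) had 20.4 and 17.2 FPKM in Q311E, 31.2 and 29.1 FPKM in WT, and 27.6 and 26.1 FPKM in the vector line. Both Q311E libraries stood below all 4 others, and it fell by 0.49 ± 0.10 (adjusted p = 0.0320). ZNF584 had 2.55 and 2.69 FPKM in Q311E, 3.83 and 4.71 FPKM in WT, and 4.77 and 3.81 FPKM in the vector line, and fell by 0.54 ± 0.14 (adjusted p = 0.0484). Neither fall was called with TPM scaling. All 12 calls were lost without vector A, vector B, WT A or WT B, where the adjusted p of these genes lay between 0.0722 and 0.257, while all 12 kept their direction. The median over the 86 members was 0.14 without Q311E A and 0.19 without Q311E B. In those fits the spread came only from the tighter WT and vector pairs, the lone Q311E library being assumed to vary like them.

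**Figure D1:**
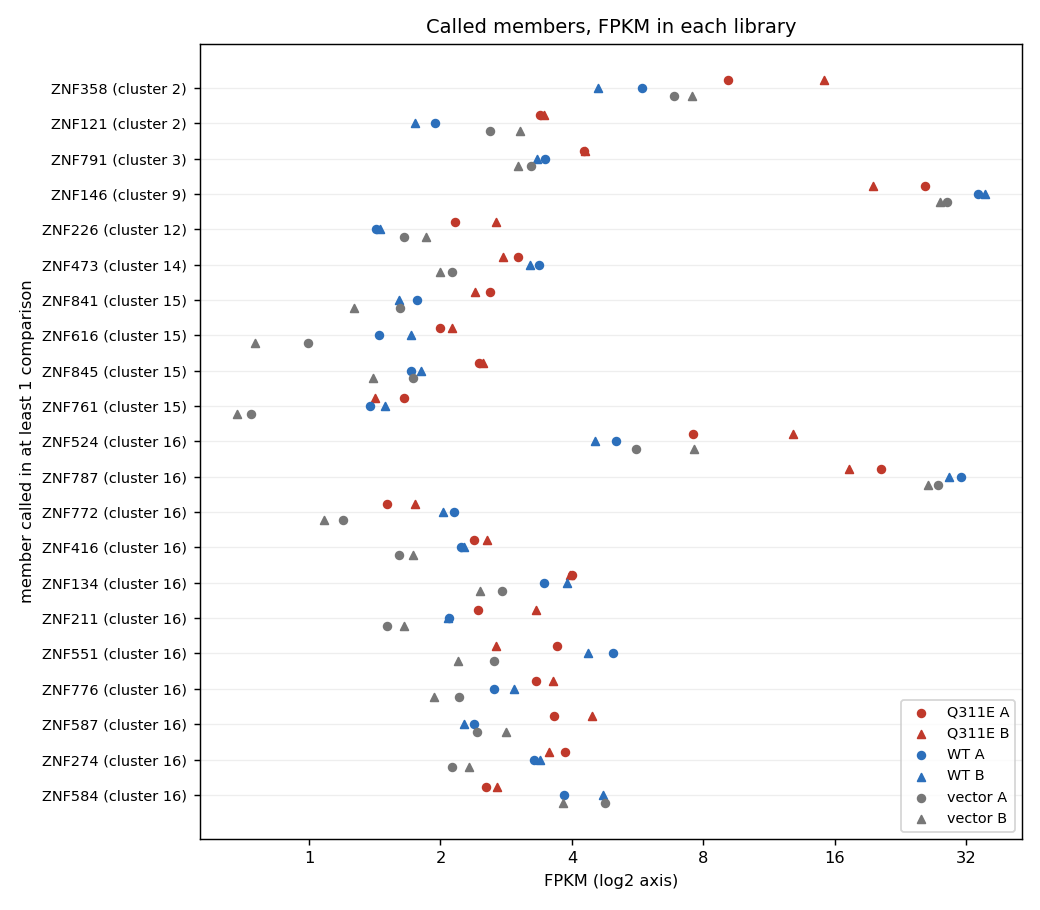
FPKM (log2 axis) of the 21 members called in at least 1 comparison, in order along chromosome 19, with Q311E above WT above vector in each line of the plot and circles for library A and triangles for library B. ZNF616, ZNF761 and ZNF274 show both MB21D2 lines above the vector libraries, while ZNF787 and ZNF584 show both Q311E libraries below the rest.

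Members with the KRAB pattern accounted for 9 of the 10 rises and 0 of the 2 falls in Q311E. The search can miss a diverged domain, and this was not checked for ZNF134, ZNF787 or ZNF584, the called members without the pattern. Of these 57 members 15.8% were called higher and 0% lower, against 8.67% and 9.28% of all genes. The median log2 fold change of KRAB members was 0.24, with 50 of 57 above 0. The 29 members without the KRAB pattern comprised 27 with neither pattern (median 0.03, 16 above 0) and 2 with SCAN only (median -0.06, 0 above 0). This split by domain was made after the fits were known and is given without a test. Set side by side at like levels, KRAB members had a median of 0.22 at a mean FPKM of 1 to 2 (n = 31) and 0.25 at 2 to 5 (n = 24). The others had 0.17 (n = 5) and 0.05 (n = 12) in the same ranges. At 5 FPKM or more the medians were 0.15 over 2 KRAB members and -0.04 over 12 others. Levels and domain thus moved together, and their parts in the shift were not tested. The summed FPKM of KRAB members was 148 and 145 in Q311E, 136 and 132 in WT, and 120 and 116 in the vector line. These 3 groups did not overlap, and any 2 groups were also apart for most genes tested. Members without the KRAB pattern summed to 165 and 180 FPKM in Q311E, 181 and 177 in WT, and 175 and 172 in the vector line. There the groups overlapped.

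**Figure D2:**
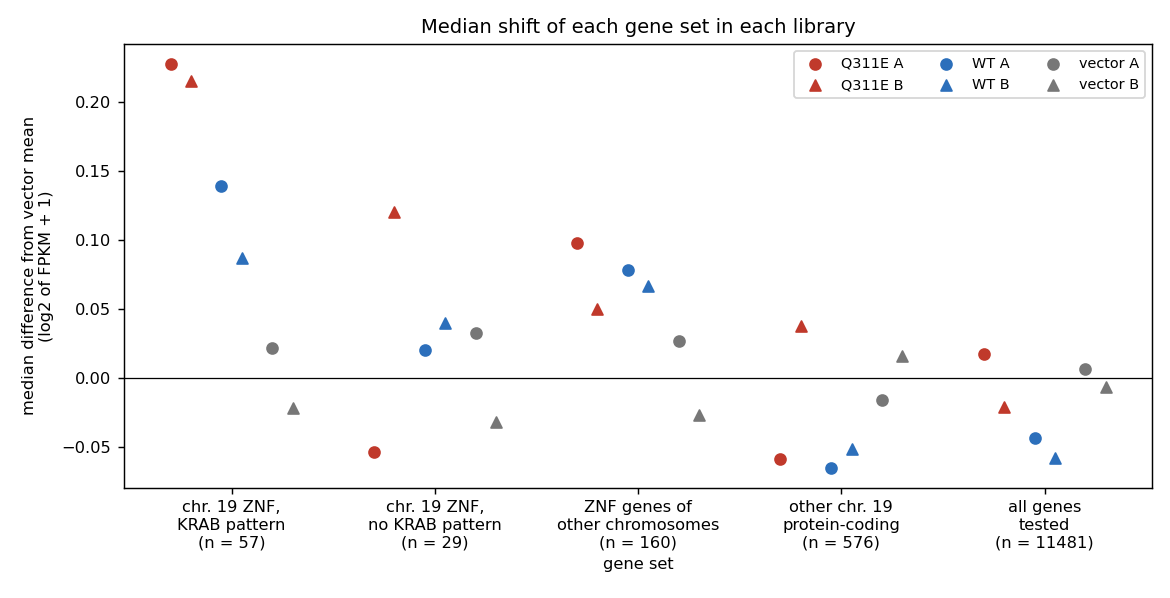
Median difference from the vector mean (log2 of FPKM + 1) of each gene set in each library, with Q311E left of WT left of vector, circles for library A and triangles for library B. KRAB members stand at 0.23 and 0.22 in Q311E and 0.14 and 0.09 in WT, and members without KRAB at -0.05 and 0.12 in Q311E and 0.02 and 0.04 in WT.

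By position, cluster 15 had the largest median among clusters with at least 3 members. All 6 of its members encode KRAB, all 6 lay above 0 in Q311E against vector, and 4 were called higher, with a median of 0.48. Of these calls ZNF616 and ZNF761 are the 2 that passed the level threshold through the MB21D2 lines. The summed FPKM of all 6 members of cluster 15 was 14.5 and 13.7 in Q311E, 11.8 and 11.7 in WT, and 9.33 and 8.26 in the vector line. The 3 groups did not overlap, with WT between the other lines, while any 2 groups were also apart for most genes tested. Cluster 3 had a median of 0.30, with 5 of 6 above 0 and 1 call, ZNF791, and sums of 14.8 and 14.9 FPKM in Q311E, 13.9 and 14.1 in WT, and 11.3 and 11.2 in the vector line. Its largest change, ZNF700, was 0.37 and not called (adjusted p = 0.0965).

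Cluster 2 lay above 0 at all 9 members (median 0.25). The limma fit called 0 of them, and limma-voom on recovered reads called 1. An unadjusted p under 0.05 was reached by 5 of them, and by 4088 of all 11481 genes. The 21 tested neighbours in cluster 2 that are no ZNF gene had a median of 0.02, with 3 called higher and 3 lower. ZNF358 had the largest change there (0.64, adjusted p = 0.118). Cluster 5 had a median of 0.15 and 5 of 5 above 0, led by ZNF708 (0.38, adjusted p = 0.0739). Cluster 12 had a median of 0.08 and 0 of 12 members called in limma, with 2 at an unadjusted p under 0.05 and 1 called by limma-voom. Within it 7 of 8 KRAB members, and 0 of the 4 in which the pattern was not found, lay above 0. The largest change was ZNF112 (0.42, adjusted p = 0.0598). ZNF708 and ZNF112 had vector means of 0.963 and 0.831 FPKM and passed the threshold only through the MB21D2 lines. Their being tested is thus not independent of their difference from vector. Cluster 16 had a median of 0.11, and it splits at a gap of over 0.5 Mb between members. The first 9 members (55.5 to 56.2 Mb), none with KRAB, had a median of 0.03 and the fall of ZNF787 as their only call. The next 28 (57.2 to 58.5 Mb), 23 of them with KRAB, had a median of 0.17, 22 above 0, 5 rises and the fall of ZNF584. The 7 other genes within cluster 16 had a median of -0.14, and none was called. Without cluster 16 the median over the remaining 49 members was 0.21. Across the 86 members the fold change had a Spearman coefficient of -0.05 with position along the chromosome, 0.10 with finger number, 0.16 with exon length and -0.24 with mean FPKM, given as descriptions across genes that share libraries.

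**Figure D3:**
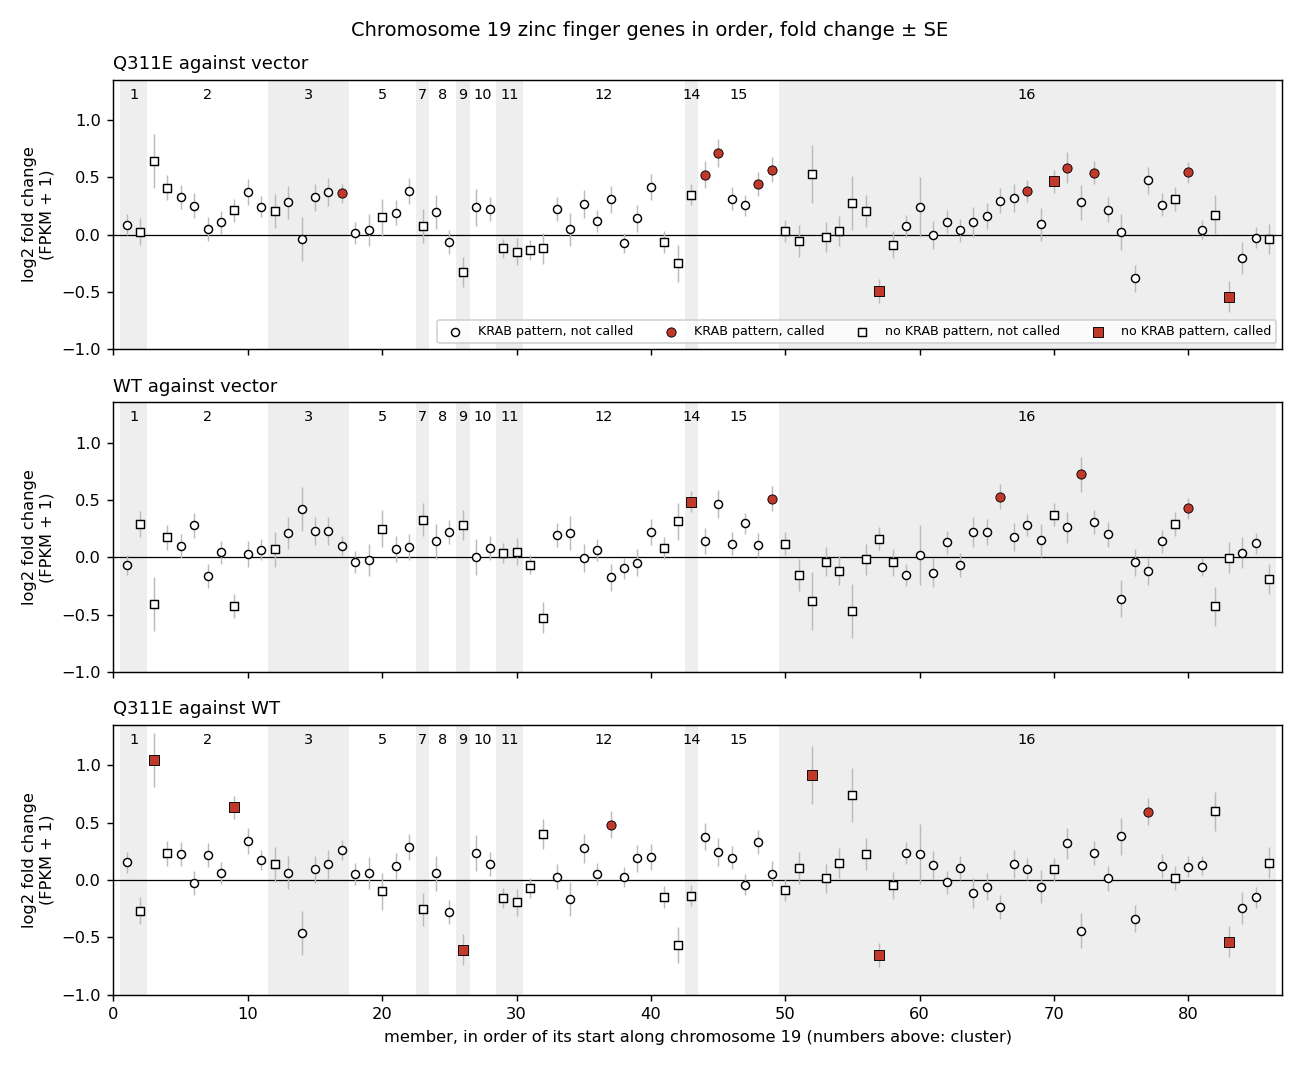
Log2 fold change (FPKM + 1) ± SE of the 86 members in order along chromosome 19 in the 3 comparisons, with cluster numbers above, circles for KRAB members, squares for the others and red for called members. In Q311E against vector 66 of 86 members lie above 0, and 4 of the 6 members of cluster 15 are called higher.

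**Figure D4:**
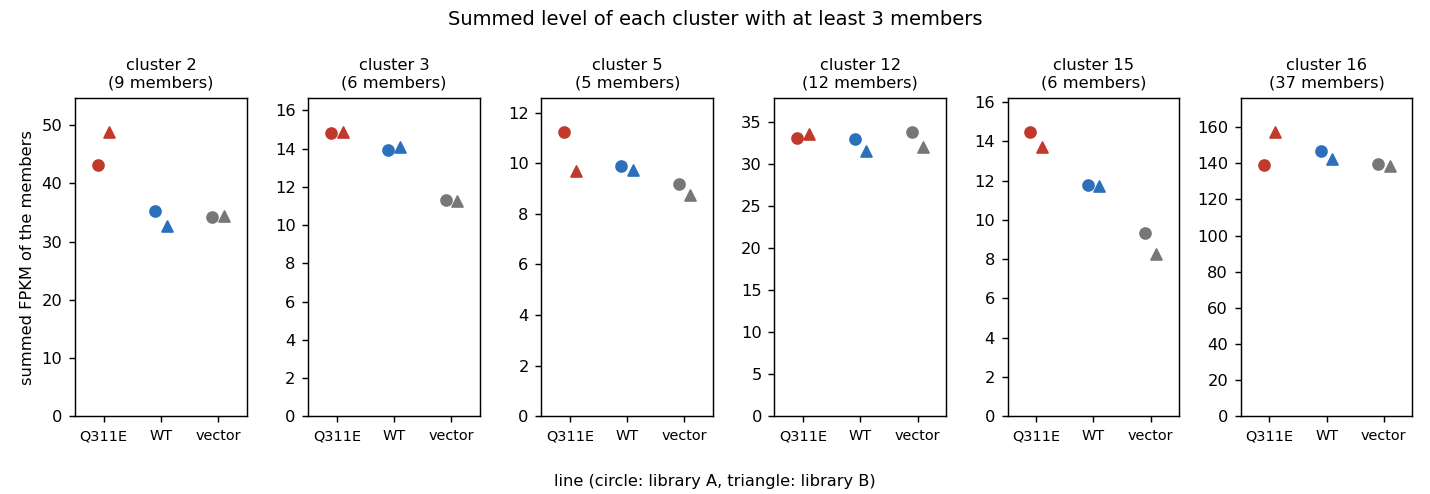
Summed FPKM of the members of each cluster with at least 3 members, in Q311E, WT and vector from left to right, with circles for library A and triangles for library B and axes from 0. Clusters 3 and 15 show the vector libraries lowest, at 11.3 and 11.2 FPKM and at 9.33 and 8.26 FPKM.

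The comparison of WT with the vector line asks the same of the wild-type form. It shares the vector libraries with the comparison of Q311E, so the 2 sets of values are not independent. The members' median was 0.09 in WT against vector, where all genes had -0.05, ZNF genes of other chromosomes 0.08 and other chromosome 19 genes -0.06. Of 86 members 57 lay above 0. The median stayed above 0 under every scaling tried (0.13 to 0.21), but was -0.03 over the 14 members with a mean FPKM of at least 5. The fit called 5 members higher (5.81%) and 0 lower, against 3.54% and 8.76% of all genes. An unadjusted p under 0.05 was reached by 16 of the 86 members and by 3631 of all 11481 genes, a larger share. On recovered reads limma-voom called 5 higher and 1 lower.

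ZNF551 (ENSG00000204519, 57681969 to 57717301), a KRAB gene of cluster 16, had 4.96 and 4.35 FPKM in WT and 3.69 and 2.69 FPKM in Q311E, against 2.65 and 2.19 FPKM in the vector line. It was highest in WT, and rose there by 0.73 ± 0.15 (adjusted p = 0.0411), while the Q311E difference from vector was 0.28 (adjusted p = 0.242). ZNF772 (57466663 to 57477570), also of cluster 16, had 2.15 and 2.02 FPKM in WT against 1.20 and 1.08 FPKM in the vector line and rose by 0.53 ± 0.11 (adjusted p = 0.0365). ZNF473 (50025714 to 50053414), the only gene of cluster 14, encodes a part of the U7 snRNP machinery that trims histone mRNAs. It had 3.36 and 3.21 FPKM in WT and 3.01 and 2.78 FPKM in Q311E, against 2.12 and 1.99 FPKM in the vector line. It rose in WT by 0.49 ± 0.09 (adjusted p = 0.0321) and its Q311E difference from vector was 0.35 ± 0.09 (adjusted p = 0.0573). ZNF761 and ZNF274 rose by 0.51 ± 0.11 (adjusted p = 0.0422) and 0.43 ± 0.09 (adjusted p = 0.0434). All 5 calls were lost without vector A, vector B, WT A or WT B, while all 5 kept their direction.

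KRAB members had a median of 0.12 in WT against vector, with 42 of 57 above 0 and 4 rises. The 27 members with neither pattern had a median of 0.05, with 15 above 0 and 1 rise. That rise was ZNF473, and whether the search missed a diverged KRAB domain there was not checked. Rises were called in 7.02% of the KRAB members and 3.70% of those 27, against 3.54% of all genes. Cluster 15 had a median of 0.22 with 6 of 6 above 0, and cluster 3 one of 0.22 with 6 of 6 above 0. Clusters 2 and 12 had medians of 0.04 and 0.03, cluster 5 one of 0.07, and cluster 16 one of 0.04 with 20 of 37 above 0. The first 9 members of cluster 16 had a median of -0.04 and the next 28 one of 0.14.

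The 73 chromosome 19 ZNF genes of the table under the threshold were not tested, and their values are set out for comparison. Both Q311E libraries stood above both vector libraries for 44 of them, where 22.6% of all 18697 genes under a mean FPKM of 1 did so. Both WT libraries did so for 27 of the 73, where 10.6% of those genes did. These 2 counts share the vector libraries. In cluster 15 they were 9 and 7 of 14 such genes, and in cluster 3 they were 7 and 8 of 15. A gene without reads in a library of the line cannot meet this rule. The 73 genes and the 18697 were not matched for level, so their shares are not like for like.

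The comparison of Q311E with WT is the one the design text names. Its median over the members was 0.10, against 0.05 over all genes and 0.00022 over ZNF genes of other chromosomes, and it flipped to -0.0062 with median scaling and -0.09 with quantile normalization, which moved the median of all genes to -0.06 and -0.07. Against all genes the members thus stood higher by a small amount as deposited and with median scaling, and lower with quantile normalization. The fit called 5 members higher (5.81%) and 3 lower (3.49%), against 17.5% and 10.1% of all genes. Both shares of the members were below the background. The calls were 3 higher and 7 lower with median scaling, and 2 higher and 10 lower with quantile normalization.

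Among the rises, ZNF358 in cluster 2 (7515292 to 7521026) had 9.09 and 15.1 FPKM in Q311E, against 5.79 and 4.59 FPKM in WT, with 6.84 and 7.53 FPKM in the vector line. It rose by 1.05 ± 0.24 (adjusted p = 0.0299), and 28.6% of its 50-base stretches also occur in transcripts of other genes, so its level is uncertain. ZNF524 had 7.57 and 12.8 FPKM in Q311E against 5.05 and 4.52 FPKM in WT (0.91 ± 0.25, adjusted p = 0.0484). In both genes Q311E B stood well above Q311E A. ZNF121 (9560353 to 9584533) had 3.38 and 3.45 FPKM in Q311E against 1.94 and 1.75 FPKM in WT, with 2.60 and 3.04 FPKM in the vector line (0.63 ± 0.10, adjusted p = 0.0151). ZNF587, which with its near copy ZNF417 is known to bind and repress HERV-K proviruses, had 3.64 and 4.44 FPKM in Q311E against 2.39 and 2.26 FPKM in WT (0.60 ± 0.12, adjusted p = 0.0233). It shares 35.5% of its 50-base stretches with other genes. ZNF226 had 2.16 and 2.68 FPKM in Q311E against 1.43 and 1.46 FPKM in WT (0.48 ± 0.12, adjusted p = 0.0361).

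The falls were the 2 most abundant members and ZNF584. ZNF146 (ENSG00000167635, 36214602 to 36238774) had 25.7 and 19.6 FPKM in Q311E against 34.1 and 35.3 FPKM in WT, with 28.9 and 27.8 FPKM in the vector line. It fell by 0.61 ± 0.13 (adjusted p = 0.0287). ZNF787 fell by 0.65 ± 0.10 (adjusted p = 0.0137) and ZNF584 by 0.54 ± 0.14 (adjusted p = 0.0390). For all 3 the Q311E libraries were the lowest of the 6. All 8 calls were lost without WT A or WT B, and only those of ZNF121 and ZNF787 held without vector A or vector B. All 8 kept their direction with any 1 library left out. KRAB members had a median of 0.12 with 2 rises (3.51%) and 0 falls, against 17.5% and 10.1% of all genes. With median scaling the KRAB median was 0.013 with 1 rise and 3 falls. With quantile normalization it turned to -0.08 with 0 rises and 5 falls.

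The RNA of genes whose proteins act with KRAB fingers was measured in the same libraries, and no protein was measured. TRIM28, the co-repressor that KRAB domains bind, had 117 and 103 FPKM in Q311E, 180 and 183 FPKM in WT, and 138 and 140 FPKM in the vector line. The Q311E libraries were lowest and the WT libraries highest. It fell in Q311E against WT by 0.72 ± 0.09 (adjusted p = 0.00903), and the differences from the vector line were -0.34 in Q311E (adjusted p = 0.0619) and 0.38 in WT (adjusted p = 0.0584). CBX5, which encodes HP1 alpha, had 8.58 and 8.82 FPKM in Q311E, 5.60 and 5.58 FPKM in WT, and 5.12 in both vector libraries, and rose in Q311E against vector by 0.66 ± 0.07 (adjusted p = 0.00809). CBX3, for HP1 gamma, had 92.3 and 85.3 FPKM in Q311E, 119 and 106 FPKM in WT, and 139 and 140 FPKM in the vector line, and fell by 0.65 ± 0.09 (adjusted p = 0.0137). SUMO3, a modifier that TRIM28 needs for repression, rose in WT against vector by 0.36 ± 0.07 (adjusted p = 0.0392) and fell in Q311E against WT by 0.43 ± 0.07 (adjusted p = 0.0163).

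The 17 co-repressor genes reported were all tested. In Q311E against vector 2 rose (CBX5 and the SETDB1 partner ATF7IP) and 1 fell (CBX3), in WT against vector 1 rose (SUMO3), and in Q311E against WT 2 rose (CBX5 and ATF7IP) and 5 fell (TRIM28, SUMO3, TRIM24, CBX1 and MBD3). Over all genes 8.67% were called higher and 9.28% lower in Q311E against vector, 3.54% and 8.76% in WT against vector, and 17.5% and 10.1% in Q311E against WT, and the counts of these short lists are read against those shares. The medians of the co-repressor genes were -0.07, 0.04 and -0.13 in the 3 comparisons. ATF7IP, TRIM24, CBX1 and MBD3 were named after their values were seen. Of 16 tested genes of H3K9 methylation and of HUSH and ATRX silencing, 2 rose in Q311E against vector. They were EHMT1, an H3K9 methyltransferase (0.57 ± 0.13, adjusted p = 0.0354), and KIAA1551, a SETDB1 partner also called RESF1 (0.79 ± 0.12, adjusted p = 0.0157). EHMT1 also rose in WT against vector (0.74 ± 0.13, adjusted p = 0.0241), and the demethylase gene KDM4C rose in Q311E against WT (0.38 ± 0.09, adjusted p = 0.0379). SUV39H2, another H3K9 methyltransferase, had 4.34 and 3.28 FPKM in Q311E, 5.25 and 5.28 FPKM in WT, and 5.09 and 4.96 FPKM in the vector line, and was called in no comparison. Of 8 tested DNA methylation genes only UHRF1, which guides DNMT1 to newly copied DNA, was called. It had 40.5 and 23.7 FPKM in Q311E against 63.6 and 59.6 FPKM in WT (-0.97 ± 0.25, adjusted p = 0.0417), with 48.4 and 39.8 FPKM in the vector line. DNMT1, MBD1 and ZBTB33 were called in none of the 3 comparisons. Every call of these lists named here against the vector line was lost without vector A, vector B, WT A or WT B (adjusted p between 0.0541 and 0.315). In Q311E against WT 0 of the 9 calls over the 3 lists held without WT A or WT B (adjusted p between 0.103 and 0.244). CBX5 and TRIM28 alone held without vector A or vector B.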

How the data were processed

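The authors deposited 1 table of FPKM values for the 6 libraries, and its unit follows from its name and values. Libraries were made from total RNA by Illumina's usual procedure, per the labels. CASAVA is named in the submitters' processing notes, as are mm8 and mm9, which are mouse builds of no stated role, while the gene IDs are human. Which aligner, counter and annotation were used, and whether strand was, is not given in any source used here. A gene and an overlapping or antisense partner thus cannot be told apart, and FPKM does not separate introduced from own MB21D2.

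GENCODE release 29 (GRCh38) gave positions, gene types and exon lengths. Whole reads within a tolerance of 0.001 were recovered for 30030 genes (99.5%) and all 86 members, 38 of them at exactly the GENCODE length and the others at a fitted length. Intervals of such counts would cover counting error only. Tests used limma 3.58.1 (R 4.3.3) on log2(FPKM + 1) with the 3 groups in 1 fit and a trend in the variance prior, over the 11481 genes whose mean FPKM reached 1. The two-sided p was adjusted over all of them by Benjamini-Hochberg, and a gene was called where it lay under 0.05. The fit was tested on simulated data. Other steps used numpy 2.4.6, pandas 2.3.3 and matplotlib 3.10.9.

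Named genes are MB21D2, per comparison up to 8 largest rises and falls among called members whose groups did not overlap, the 5 most abundant members, the largest change of each cluster with at least 3 members, the 3 nearest to the threshold on each side, and up to 4 genes of each list with the smallest p. A gene of the co-repressor list is not reported here, and its list is counted without it. Members, lists and tests were chosen with earlier results of these data known. Alternatives covered the pseudocount, filters, scaling, length trend, recovered reads, variance prior, array weights, samples in the fit, a replicate block and each library left out.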

Additional observations from a re-analysis of the deposited data

How the results depend on the processing

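Counts of called members depended strongly on the fit. For Q311E against vector, 12 members called became 1 with no filter on low values, 1 with a mean FPKM of at least 5 (14 members), 7 with TPM scaling, 7 with quantile normalization, 0 with array weights and 0 with only the 2 groups compared. For WT against vector, 5 became 0 with no filter, 0 at a mean FPKM of at least 5, 3 among members of at least 2, 2 with TPM scaling, 26 with array weights and 22 with only the 2 groups. For Q311E against WT, 8 became 2 with no filter, 4 at a mean FPKM of at least 5, 3 with array weights and 2 with only the 2 groups. Leaving out 1 library gave 0 to 34 calls for Q311E against vector, 0 to 22 for WT against vector and 0 to 28 for Q311E against WT. Apart from a replicate block, the other fits kept the counts within 1.5 times.

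Medians over the members also depended on the fit, and some changed sign. For Q311E against vector the median of 0.20 was 0.26 with a pseudocount of 0.1, 0.26 with TPM scaling, 0.16 with median scaling, 0.11 with quantile normalization, 0.28 on recovered reads, 0.10 among members of at least 2 FPKM and 0.0059 at 5 or more. For WT against vector 0.09 became 0.13, 0.17, 0.17, 0.21 and 0.13 in the first 5 of these, and -0.027 at 5 or more. For Q311E against WT 0.10 became 0.13 with the pseudocount, 0.14 on recovered reads, 0.076 among members of at least 2 FPKM, 0.060 at 5 or more, -0.0062 with median scaling and -0.086 with quantile normalization. The KRAB median for that comparison was -0.081 with quantile normalization. Leaving out 1 library gave 0.14 to 0.20, 0.061 to 0.12 and 0.070 to 0.10 in the 3 comparisons. Of 23 fold changes of named called members, each kept its direction in every fit, and the call was lost for 170 of the 433 refitted values. Without members sharing over 20% of their 50-base stretches, an alternative added after seeing the data like the KRAB medians, the counts were 12, 5 and 6.

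The letters A and B are not said to pair the libraries. The A minus B differences over all genes correlated by -0.0061 between Q311E and WT, 0.39 between Q311E and vector and -0.03 between WT and vector. With a replicate block 7, 2 and 10 members were called in the 3 comparisons, against 16.91%, 11.31% and 28.43% of all genes. The medians were unchanged at 0.20, 0.09 and 0.10. Depth limits the weakest members, which rested on as few as 40 reads in a library, and 2 libraries a group limit every test. The Q311E pair had the widest spread, which the shared fit applies to all groups.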

Other observations

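Chromosome 19 ZNF genes under the threshold were not tested as members, but some of them were close to silent in the vector line alone. They are given as values, and the genes named were chosen after their values were seen. ZNF28, in cluster 15, had 1.96 and 1.64 FPKM in Q311E and 1.19 and 0.887 FPKM in WT, and was listed at 0 in both vector libraries. ZNF468, of the same cluster, had 1.15 and 0.970 FPKM in Q311E and 0.680 and 0.677 FPKM in WT, against 0.113 and 0.107 FPKM in the vector line. In cluster 3, ZNF443 had 1.38 and 1.08 FPKM in Q311E and 0.873 and 1.13 FPKM in WT, against 0.0155 and 0.0182 FPKM in the vector line, where each value is 1 recovered read. ZNF44, also in cluster 3, had 1.05 and 1.08 FPKM in Q311E and 0.724 and 0.812 FPKM in WT, against 0.287 and 0.264 FPKM in the vector line. Each of these 4 genes had all MB21D2 libraries above both vector libraries.

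The 14 genes of cluster 15 under the threshold summed to 7.88 and 7.15 FPKM in Q311E and 5.46 and 5.11 FPKM in WT, against 2.71 and 2.43 FPKM in the vector line. The 15 such genes of cluster 3 summed to 4.998 and 4.46 FPKM in Q311E and 3.96 and 4.29 FPKM in WT, against 1.71 and 1.59 FPKM in the vector line. The 11 of cluster 16 summed to 5.85 and 6.60 FPKM in Q311E and 5.20 and 5.29 FPKM in WT, against 4.99 and 5.83 FPKM in the vector line, where the groups nearly met or overlapped. The 10 of cluster 12 summed to 5.11 and 6.14 FPKM in Q311E and 3.28 and 3.43 FPKM in WT, against 3.95 and 3.98 FPKM in the vector line, with WT the lowest. The other clusters held at most 6 such genes each. Much of the difference in clusters 15 and 3 came from the 4 genes named above. Without them the 12 genes left in cluster 15 summed to 4.78 and 4.54 FPKM in Q311E and 3.59 and 3.54 FPKM in WT, against 2.60 and 2.32 FPKM in the vector line. The 13 left in cluster 3 summed to 2.57 and 2.31 FPKM in Q311E and 2.36 and 2.35 FPKM in WT, against 1.40 and 1.31 FPKM in the vector line. Clusters 3 and 15 were also those with the largest medians, among clusters with at least 3 members, in Q311E against vector, from the same libraries.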
